A study of Mus musculus with 18 samples.

Results

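Sbno2 and Sbno1 are the mouse counterparts of the fly gene strawberry notch, and both encode large nuclear proteins with a helicase-type domain. They were taken from the array by the gene symbol that the platform annotation gives each probe set, a set of short probes designed against 1 transcript sequence. This gave 9 of the 45101 probe sets, 4 for Sbno2 and 5 for Sbno1, and these are 2 of the 18194 genes that had a probe set with 1 symbol. The annotation names 1 sequence record as the source of both 1434612_s_at and 1455026_at of Sbno1, so those probe sets share a target. No values were used in choosing the probe sets, but both genes were chosen with earlier results of these data known, and the title of the series speaks of a co-repressor induced through STAT3.

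The cells were macrophages of IL-10-/- mice, raised over 7 days of culture out of marrow with CSF-1, a growth factor supplied by L-cell conditioned medium, and then treated in medium without it. They received LPS at 100 ng/ml plus IL-10 at 10 ng/ml, or LPS at 100 ng/ml alone, for 10, 20 or 30 min. Each of the 6 groups had 3 arrays, 1 from each of 3 independent experiments done one after the other with mice matched for age and sex, and total RNA was hybridised to Affymetrix arrays. Every group, the LPS controls included, was IL-10-/- and received LPS. Neither untreated nor wild-type cells were analysed here, so a change over time is relative to 10 min, and the sources used here name neither the mouse strain nor the number of mice per experiment.

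In the fly, strawberry notch acts in the nucleus downstream of the receptor Notch. In mice, Sbno2 is known as a gene induced by IL-10 through STAT3 whose protein can repress transcription driven by NF-kB, the factor that LPS activates, and it is needed in bone for osteoclast precursors to fuse. Sbno1 is needed in the mouse blastocyst for the outer cell layer to form properly. IL-10 binds a receptor that activates the kinases Jak1 and Tyk2, which phosphorylate STAT3, and STAT3 then enters the nucleus and binds DNA at sites of the form TTCNNNGAA.

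RefSeq gives 3 start windows for Sbno2 and 2 for Sbno1 on build GRCm38.p6, each from 250 bases before to 50 after an annotated transcript start, and all are on the minus strand. The letters TTCNNNGAA, which read the same on both strands, occurred in 2 of the 3 Sbno2 windows and in 1 of the 2 Sbno1 windows, and in 8.30% of all 32851 mouse windows of this length. The 3 windows with a match are printed 5′ to 3′ because they show where the letters lie relative to the start, with the match in capitals.

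Sbno2, chr10:80102653-80102952, minus strand: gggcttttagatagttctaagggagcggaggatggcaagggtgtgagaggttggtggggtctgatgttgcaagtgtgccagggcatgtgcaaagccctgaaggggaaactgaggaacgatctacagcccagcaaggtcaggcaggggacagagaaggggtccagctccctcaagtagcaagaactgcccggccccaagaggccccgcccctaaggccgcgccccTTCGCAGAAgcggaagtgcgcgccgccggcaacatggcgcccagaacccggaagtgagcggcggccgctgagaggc

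Sbno2, chr10:80101138-80101437, minus strand: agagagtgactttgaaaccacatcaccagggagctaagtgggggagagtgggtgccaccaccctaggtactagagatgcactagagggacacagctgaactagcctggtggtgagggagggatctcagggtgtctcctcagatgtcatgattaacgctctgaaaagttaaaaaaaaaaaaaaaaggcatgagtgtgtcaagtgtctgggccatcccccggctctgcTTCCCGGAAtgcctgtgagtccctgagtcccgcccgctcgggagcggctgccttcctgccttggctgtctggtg

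Sbno1, chr5:124425908-124426207, minus strand: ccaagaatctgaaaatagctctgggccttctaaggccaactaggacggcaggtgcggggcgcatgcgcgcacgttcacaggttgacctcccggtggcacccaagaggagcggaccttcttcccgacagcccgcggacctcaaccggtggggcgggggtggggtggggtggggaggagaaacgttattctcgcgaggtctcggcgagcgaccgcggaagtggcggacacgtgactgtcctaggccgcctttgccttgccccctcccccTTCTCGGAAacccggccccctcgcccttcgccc

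In the Sbno2 windows the match begins 26 bases upstream of the start in the first and 24 bases upstream in the second, and in the Sbno1 window it begins at base 18 downstream. The remaining windows, chr10:80075390-80075689 of Sbno2 and chr5:124425553-124425852 of Sbno1, did not hold these letters. The ETS letters CCGGAAG, searched on both strands, occurred once in the first Sbno2 window and in 8.86% of all windows. The NF-kB letters GGGA and TTTCC with 1 free base between them (0.411% of all windows) and the AP-1 letters TGANTCA (7.81%), also searched on both strands, were in none of the 5 windows. A match is a string of letters and not a site shown to be bound, and which start these macrophages use was not measured.

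All arrays were scaled to the same trimmed mean, near 500, and their median signals lay between 75.6 and 120.9. At 20 min, 2 of the LPS arrays stood apart, those of experiments 2 and 3. Their 25th percentile signals were 38.6 and 34.0, with 21.8 to 31.0 on the other 16, and their median rank correlations with the rest were 0.873 and 0.867, against 0.889 to 0.910. The targeted gene Il10 gave signals of 602 to 3209 on all 18 arrays, which checks nothing about the genotype because it is not stated where its probes lie relative to the disrupted part of the gene. All 10 macrophage markers were at or above the array median on every array. Granulocyte markers (5 of 6 on the array, 4 of them above the median on every array) summed to 5394 to 13538 signal units with IL-10 and 5565 to 13424 with LPS alone, and stromal markers (5 of 5, 3 above) to 1811 to 3693 with IL-10 and 1670 to 2747 with LPS alone. Of the other marker genes on the array (7 lymphocyte, 2 erythroid and 5 dendritic), 0 were above the median on every array, and Cd3g, Cd4 and Alas2 were below it on every array. The signals come from whole cultures, so more cells expressing a gene cannot be told apart from more RNA per cell.

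Sbno2 was higher in cells given LPS plus IL-10 than in cells given LPS alone at 20 and 30 min, and at 10 min the groups overlapped. By its brightest probe set, 1439349_at, the mean signal with IL-10 was 2.94 times that with LPS alone at 20 min and 5.86 times at 30 min. The signal with LPS alone stayed between 309 and 565 on all 9 arrays. Throughout, signals and these ratios of mean signals are on the linear scale of the deposited values. Log2 differences and changes are of log2(signal + 16). The constant of 16 damps the noise of dim probe sets and understates their changes.

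At 10 min, 1439349_at read 399, 509 and 473 in experiments 1, 2 and 3 with LPS plus IL-10, against 367, 565 and 331 with LPS alone. The highest of the 6 values was an LPS array, and IL-10 was above LPS in 2 of the 3 experiments. The log2 difference was 0.15 (SE 0.22, 95% interval -0.31 to 0.61, limma adjusted p = 1.00).

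At 20 min it read 1222, 1196 and 1735 with LPS plus IL-10, against 481, 494 and 437 with LPS alone. The groups did not overlap, and even the lowest IL-10 array was well above the highest LPS array. The means were 1384 ± 304 and 471 ± 29.7 (SD, n = 3 each), the log2 difference was 1.51 (SE 0.22, 95% interval 1.05 to 1.96), and the limma adjusted p was 0.0394, or 0.000489 with the experiment as a block. Leaving out any 1 of the 6 arrays kept the log2 difference between 1.33 and 1.6 but gave adjusted p of 0.108 to 0.407, and leaving out experiment 1, 2 or 3 gave 0.729, 0.661 and 1.00, or 0.191, 0.00647 and 0.0152 with the block. Without the 2 LPS arrays that stood apart, the log2 difference was 1.47 with an adjusted p of 0.271, and 1.31 with an adjusted p of 0.0997 under the block.

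At 30 min the probe set read 1994, 2480 and 1977 with LPS plus IL-10, against 309, 441 and 351 with LPS alone. The arrays of each group lay close together and the groups were far apart, with log2 differences of 2.63, 2.45 and 2.44 in experiments 1, 2 and 3. The means were 2150.1 ± 286 and 367 ± 67.3 (SD, n = 3 each), and the log2 difference was 2.51 (SE 0.22, 95% interval 2.05 to 2.97, limma adjusted p = 7.24e-05). Leaving out experiment 1 or experiment 3 gave adjusted p = 0.144 and 0.0742 without the block, with differences of 2.45 and 2.54, and the difference passed in every such subset with the block. Of the 27110 probe sets tested, this one had the smallest p for the IL-10 effect at 30 min and the second smallest at 20 min.

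**Figure D1:**
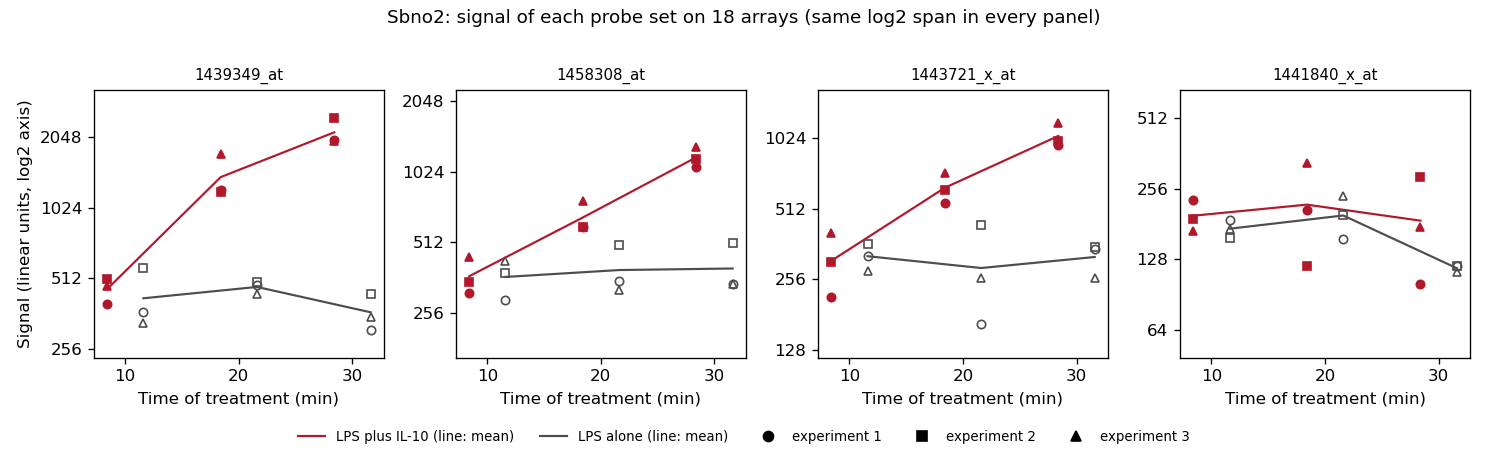
Signal of the 4 Sbno2 probe sets on every array, on a log2 axis, by time (min), with LPS plus IL-10 drawn left of LPS alone at each time. Points are arrays and lines join the group means. In 1439349_at the IL-10 arrays at 30 min (1977 to 2480) lie above all LPS arrays (at most 565), and 1441840_x_at shows groups that overlap at every time.

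The other Sbno2 probe sets were dimmer and did not all behave alike. For 1458308_at the signals at 10 min were 311, 347 and 440 with LPS plus IL-10, against 289, 378 and 423 with LPS alone. At 20 min they were 596, 594 and 766 with LPS plus IL-10, against 348, 498 and 321 with LPS alone. At 30 min they were 1073, 1161 and 1302 with LPS plus IL-10, against 340, 507 and 339 with LPS alone. The groups overlapped at 10 min and were apart at 20 and 30 min. The log2 difference was 0.74 at 20 min (SE 0.23, limma adjusted p = 1.00) and 1.56 at 30 min (SE 0.23, limma adjusted p = 0.0270), so the IL-10 effect passed at 30 min.

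For 1443721_x_at the signals at 10 min were 214, 302 and 404 with LPS plus IL-10, against 322, 364 and 279 with LPS alone. At 20 min they were 541, 618 and 729 with LPS plus IL-10, against 165, 436 and 258 with LPS alone, and at 30 min 962, 993 and 1188 with LPS plus IL-10, against 346, 352 and 260 with LPS alone. Again the groups overlapped at 10 min only. The log2 difference was 1.19 at 20 min (SE 0.29, limma adjusted p = 1.00, and 0.372 with the block) and 1.67 at 30 min (SE 0.29, limma adjusted p = 0.128, and 0.00453 with the block), so this probe set passed only at 30 min and only with the experiment as a block.

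The fourth probe set, 1441840_x_at, was the dimmest of Sbno2, and its groups overlapped at each time. At 10 min it read 231, 190 and 170 with LPS plus IL-10, against 188, 158 and 173 with LPS alone. At 20 min it read 209, 120 and 329 with LPS plus IL-10, against 156, 198 and 238 with LPS alone. At 30 min it read 101, 286 and 175 with LPS plus IL-10, against 120, 120 and 113 with LPS alone. At 30 min the array of experiment 1 with IL-10 was the lowest of the 6. Its log2 difference was 0.06 at 20 min and 0.50 at 30 min (95% interval -0.22 to 1.22, limma adjusted p = 1.00). The mark x in its name and in that of 1443721_x_at is the array maker's sign that probes may also match other transcripts.

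Counted over the gene, 3 of the 4 Sbno2 probe sets had IL-10 arrays wholly above LPS arrays at 20 min and the same 3 at 30 min. Over all tested probe sets, groups were apart in this direction for 1.89% at 20 min and 2.05% at 30 min. By the adjusted p, 1 of the 4 was called higher at 20 min and 2 of the 4 at 30 min, where the calls over all tested probe sets came to 0.00738% and 0.0111%. With the block it was 1 at 20 min and 3 at 30 min, against 0.0184% and 0.0443% of all tested. At 10 min 0 of the 4 were called, by limma with and without the block, and 0.00% of all tested probe sets were.

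Across the 18 arrays the 3 responding Sbno2 probe sets followed each other, with Pearson correlations of 0.90 to 0.94 of the log2 signals. On the same measure 1441840_x_at correlated with them at 0.11 to 0.25. Once the group means were taken out, the pairs of responding probe sets correlated at 0.35 to 0.64. The pairs with 1441840_x_at then gave 0.11 to 0.32, which comes close to the lowest of these. These are descriptions over arrays that share treatment, time and experiment. On average the IL-10 effect was larger by 1439349_at than by each of the others. An exact sign-flip test used the 9 pairs of arrays matched by experiment and time, which come from 3 experiments and are not fully independent. The brightest probe set was picked by its mean over all 18 arrays, IL-10 arrays included, so the choice itself favours a large IL-10 effect. These p-values therefore cannot show that it responds more than the others. The mean excess of 1439349_at was 0.62 log2 units over 1458308_at (larger in 8 of 9 pairs, exact p = 0.0117, adjusted over 4 tests 0.0260). The excess was 0.47 over 1443721_x_at (7 of 9, exact p = 0.0273, adjusted 0.0273) and 1.15 over 1441840_x_at (7 of 9, exact p = 0.0195, adjusted 0.0260), all two-sided.

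Within the cells given LPS plus IL-10, Sbno2 rose with time. By 1439349_at the mean signals at 10, 20 and 30 min were 460.2 ± 56.1, 1384 ± 304 and 2150.1 ± 286 (SD, n = 3 each). The log2 change was 1.54 for 20 minus 10 min (SE 0.22, limma adjusted p = 0.0195) and 2.18 for 30 minus 10 min (SE 0.22, limma adjusted p = 0.000133). The step from 20 to 30 min was 0.64 (95% interval 0.18 to 1.10), present in all 3 experiments at 0.70, 1.04 and 0.19, but it did not pass (limma adjusted p = 1.00, and 0.432 with the block). Leaving out any 1 array ended the call for 20 minus 10 min (adjusted p 0.0555 to 0.202), and leaving out experiment 1 ended that for 30 minus 10 min (2.14, adjusted p = 0.0797, or 0.00465 with the block). Probe sets 1458308_at and 1443721_x_at rose by 1.65 and 1.76 for 30 minus 10 min (limma adjusted p = 0.00447 and 0.0304), whereas 1441840_x_at gave -0.16. Over all tested probe sets, 0.0111% were called higher for 20 minus 10 min and 0.0443% for 30 minus 10 min, or 0.0332% and 0.195% with the block (and 0.0295% lower for 30 minus 10 min, 0.225% in either direction).

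With LPS alone the 4 Sbno2 probe sets passed no comparison of times, by limma with or without the block. By 1439349_at the means at 10, 20 and 30 min were 421 ± 126, 471 ± 29.7 and 367 ± 67.3 (SD, n = 3 each). The log2 change was 0.19 for 20 minus 10 min (95% interval -0.27 to 0.65) and -0.17 for 30 minus 10 min (95% interval -0.63 to 0.29). For 30 minus 20 min it was -0.36 (95% interval -0.82 to 0.10), and the 30 min array was the lower in all 3 experiments. The other responding probe sets did not share this fall. In experiments 1, 2 and 3, 1458308_at changed by -0.03, 0.02 and 0.07, and 1443721_x_at by 1.00, -0.30 and 0.01. The dimmest, 1441840_x_at, was lower at 30 min in all 3. Over all tested probe sets, 0.0184% were called for 30 minus 10 min with LPS alone, or 0.107% higher and 0.111% in either direction with the block. For 20 minus 10 min and 30 minus 20 min these shares were 0.00% without the block, and 0.0148% and 0.0184% with it.

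The growth of the IL-10 effect with time was tested as an interaction. For 1439349_at the effect at 30 min exceeded that at 10 min by 2.35 log2 units (SE 0.31, limma adjusted p = 0.0221), and it was the only probe set of 27110 called in that comparison (0.00369%, or 0.0184% with the block). For 20 minus 10 min the change of the effect was 1.35 (limma adjusted p = 1.00, and 0.133 with the block) and for 30 minus 20 min 1.00 (adjusted p = 1.00, and 0.898 with the block), and neither passed. The call for 30 minus 10 min was lost without any 1 experiment (2.23 to 2.55) and without 10 of the 12 single arrays (adjusted p 0.0549 to 0.137 for these 10). With the block it had an adjusted p of 0.000332 and was lost only without experiment 1 (adjusted p = 0.432). The change for 30 minus 10 min was 1.55 by 1458308_at (limma adjusted p = 1.00, and 0.0458 with the block) and 1.77 by 1443721_x_at (1.00, and 0.178).

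**Figure D2:**
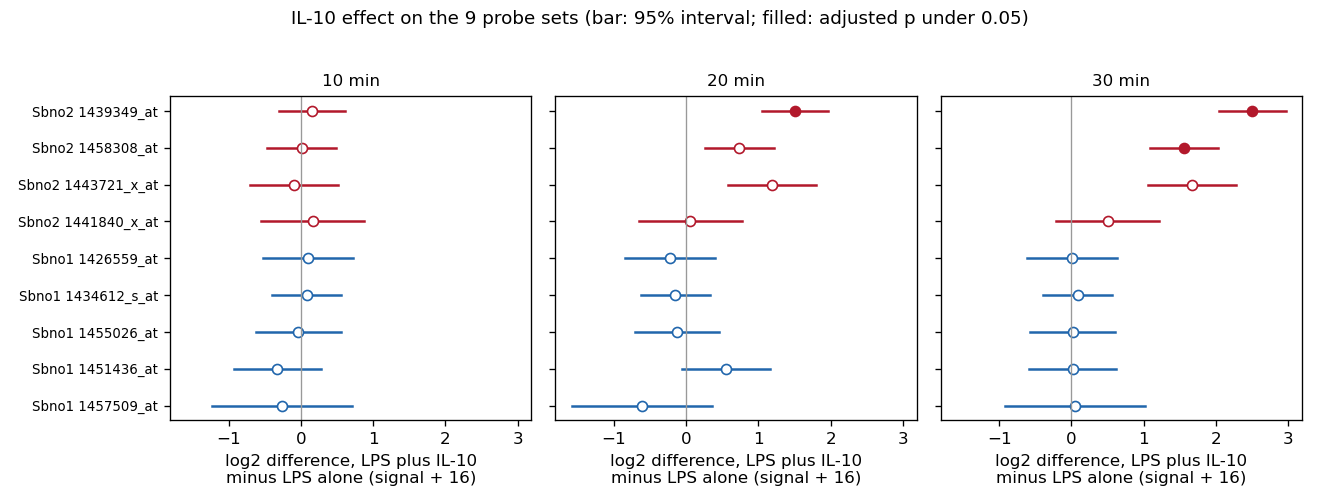
IL-10 effect, as the log2(signal + 16) difference of LPS plus IL-10 minus LPS alone, for all 9 probe sets at 10, 20 and 30 min. Points are limma estimates and bars their 95% intervals. At 30 min 3 of the 4 Sbno2 probe sets lie between 1.56 and 2.51, and the 5 Sbno1 probe sets lie between 0.01 and 0.09.

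Sbno1 passed the test in no comparison of treatments or times, in any of its 5 probe sets, by limma with or without the block. For the IL-10 effect averaged over the times, 0.0111% of all tested probe sets were called without the block and 0.0332% with it. By its brightest probe set, 1426559_at, the signals at 10 min were 2037, 2354 and 2490 with LPS plus IL-10, against 1819, 2009 and 2674 with LPS alone. At 20 min they were 1880, 1277 and 3351 with LPS plus IL-10, against 1977, 1992 and 3293 with LPS alone. At 30 min they were 1748, 2236 and 2683 with LPS plus IL-10, against 1804, 2441 and 2325 with LPS alone. The groups overlapped at each time, and the array of experiment 3 was the highest in 5 of the 6 groups. The log2 differences were 0.10 at 10 min, -0.23 at 20 min and 0.01 at 30 min, and averaged over the times the difference was -0.04 (95% interval -0.40 to 0.32). The change for 30 minus 10 min was -0.06 with LPS plus IL-10 and 0.02 with LPS alone.

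The second-brightest Sbno1 probe set, 1434612_s_at, read 1419, 1468 and 1387 at 30 min with LPS plus IL-10, against 1162, 1491 and 1393 with LPS alone. Its groups at 10 and 20 min spanned 1438 to 1550 and 1021 to 1827 with LPS plus IL-10, against 1308 to 1568 and 1150 to 2026 with LPS alone. In 1455026_at the signals ran from 253 to 581 with LPS plus IL-10 and from 235 to 531 with LPS alone over all times, and in 1451436_at from 244 to 599 with LPS plus IL-10 and from 210 to 517 with LPS alone. The dimmest, 1457509_at, ran from 31.1 to 113 with LPS plus IL-10 and from 42.3 to 231 with LPS alone, and was at or above the array median on 11 of the 18 arrays. The other 8 probe sets of both genes were so on all 18, and all 9 entered the test.

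At 30 min the log2 differences of the 5 Sbno1 probe sets lay between 0.01 and 0.09, and their 95% intervals together spanned -0.92 to 1.02 (-0.61 to 0.63 for the 4 brighter ones). None of the 5 was under an unadjusted p of 0.05 there, by limma with or without the block. At 20 min the differences ranged from -0.61 in 1457509_at to 0.55 in 1451436_at, with 0 of 5 under an unadjusted p of 0.05, or 1 of 5 with the block. For Sbno2 3 of 4 were under it at 20 min and 3 of 4 at 30 min. Of all 27110 probe sets tested 3.01% were under it at 20 min and 1.16% at 30 min, or 7.81% and 2.81% with the block, so a count of 0 or 1 of 5 for Sbno1 is close to what these shares give. These intervals do not bound a small effect on Sbno1, and a p that misses the threshold does not show that it stayed the same. The groups were apart in 0 of the 5 Sbno1 probe sets at each time. Over all tested probe sets IL-10 arrays were wholly above LPS arrays for 2.07%, 1.89% and 2.05% at 10, 20 and 30 min and wholly below for 2.61%, 3.01% and 2.76%, so 0 of 5 is not set apart from the background.

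**Figure D3:**
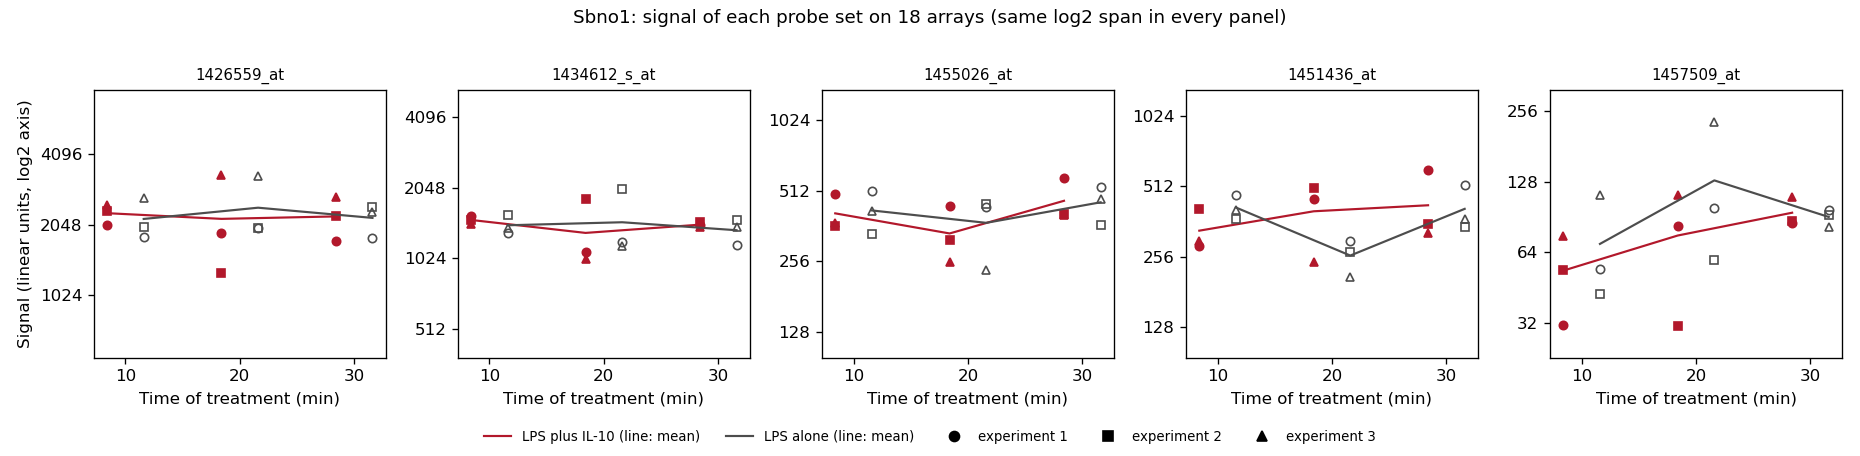
Signal of the 5 Sbno1 probe sets on every array, on a log2 axis, by time (min), with LPS plus IL-10 drawn left of LPS alone at each time. Points are arrays and lines join the group means. The groups overlap at every time in every panel, and in 1426559_at the arrays spread from 1277 to 3351.

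The Sbno1 probe sets differed among themselves by experiment. Averaged over 6 arrays each, 1426559_at read 1877 ± 110, 2051 ± 420.2 and 2803 ± 424 in experiments 1, 2 and 3 (SD). In 1451436_at the order was the opposite, with 437, 375 and 308, and 1434612_s_at was highest in experiment 2 (1289, 1645 and 1294). Of the 10 pairs of Sbno1 probe sets 6 had a negative correlation over the 18 arrays, from -0.71 between 1426559_at and 1451436_at to 0.69 between 1426559_at and 1457509_at. The probe sets designed from 1 sequence record, 1434612_s_at and 1455026_at, correlated at 0.15. For Sbno2 0 of 6 pairs were negative. The lowest 1426559_at signal, 1277, was on the IL-10 array of experiment 2 at 20 min, which also had the highest 3′ to 5′ signal ratio for Gapdh (1.02, against 0.762 to 0.906 on the others). Its part in that value was not tested.

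The IL-10 effects of both genes were then compared directly by their brightest probe sets. The Sbno2 probe set was picked with the IL-10 arrays included, which favours a large Sbno2 effect in this comparison. The log2 effect on Sbno2 exceeded that on Sbno1 by 1.43 on average over the 9 matched pairs of arrays (SD 1.12). It was the larger in 7 of 9, with a two-sided exact sign-flip p of 0.0156 (adjusted over 4 tests 0.0260, smallest possible p 0.00391). Leaving out 1 experiment leaves 6 pairs, with a mean of 1.35 to 1.47 and exact p of 0.0625 to 0.125. By time the excess was 0.06 at 10 min, 1.73 at 20 min and 2.50 at 30 min. Within a time the exact permutation p was 0.9, 0.1 and 0.1 at 10, 20 and 30 min, and 3 values against 3 cannot give less than 0.1.

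Genes beside Sbno2 and Sbno1 on the chromosome gave no called difference. On the lower-coordinate side of Sbno2 lie Gpx4, the enzyme that reduces lipid peroxides, and Polr2e, a subunit of the RNA polymerases. Their log2 IL-10 effects at 30 min were 0.07 (SE 0.15) and 0.01 (SE 0.14). On the other side Stk11, the kinase LKB1, gave 0.08 (SE 0.22), and Cbarp did not reach the level needed for the test. Around Sbno1, Cdk2ap1 gave 0.09 (SE 0.17), the histone H4 methyltransferase Kmt5a -0.15 (SE 0.28) and Rilpl2 -0.03 (SE 0.45), and 2810006K23Rik was not tested. The limma adjusted p was 1.00 for each of these 6 genes at 30 min with and without the block. Calls at 30 min came to 0.0111% of all tested probe sets, or 0.0443% with the block. The lack of a call among 6 genes is therefore not set apart from the background.

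**Figure D4:**
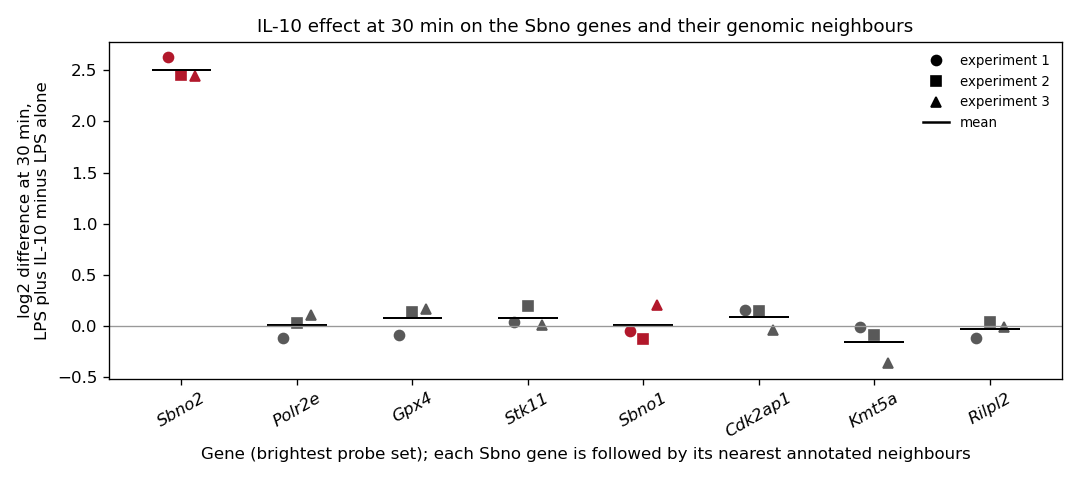
IL-10 effect at 30 min, as the log2(signal + 16) difference of LPS plus IL-10 minus LPS alone, each gene by its brightest probe set. Sbno2 and Sbno1 are each followed by their tested neighbours. Points are the differences in the 3 experiments, and short lines are their means. Sbno2 stands at 2.51, and its neighbours between 0.01 and 0.08.

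The components that carry the IL-10 signal to STAT3 were next set beside Sbno2, gene by gene with the brightest probe set. Of the 9 receptor, kinase and STAT genes 8 were measured, 0 were called at 30 min and 0 were under an unadjusted p of 0.05, by limma with and without the block. Their median log2 difference was 0.05, and 5 were positive. Over all 12527 tested genes the median was -0.00 and 49.0% were positive. The receptor chain Il10rb gave 0.02, the kinase Jak1 -0.05 and Stat3 0.07.

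Among 20 genes listed as induced through STAT3 or as regulators of macrophage activation, 19 were measured, 13 had a positive difference at 30 min and the median was 0.21. Only Socs3, the feedback inhibitor of cytokine receptor signalling, was called higher without the block. It read 10873 ± 454 with LPS plus IL-10, against 2196 ± 1134 with LPS alone (SD, n = 3 each), a log2 difference of 2.42 (SE 0.30, limma adjusted p = 0.00464). With the block Gadd45g, a stress-response protein, at 1.70 (adjusted p = 0.00261), and the transcription factor Irf1, at 1.03 (adjusted p = 0.00801), were called as well, which makes 3 of 19. Calls higher at 30 min came to 0.0111% of all tested probe sets, or 0.0443% with the block. Under an unadjusted p of 0.05 were 4 of the 19, or 7 with the block, against 1.16% and 2.81% of all tested probe sets. The list itself was not tested. Among the brightest of the list, Mcl1, which opposes cell death, gave -0.03, Fos -0.09 and Cebpb 0.03. Within the LPS plus IL-10 groups the change for 30 minus 10 min was positive for 17 of the 19, with a median of 0.68 and 1 call, or 7 with the block (all tested genes had a median of -0.04 and 41.0% positive, and 0.0443% of all tested probe sets were called higher, or 0.195% with the block). Those 7 were Socs3, Etv3, Zfp36, Gadd45g, Pim1, Irf1 and Tnfaip3. Between 10 and 30 min Socs3 rose from a mean of 541 to 10873 with LPS plus IL-10, and from 553 to 2196 with LPS alone. With LPS alone the same change was positive for 15 of the 19, with a median of 0.20 and 1 call, or 3 with the block (all tested genes had a median of -0.02 and 44.6% positive, and 0.0184% of all tested probe sets were called higher, or 0.107% with the block).

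No Notch gene was called for IL-10 at 30 min. Of 23 listed, 20 were measured, 9 had a positive IL-10 difference at 30 min, the median was -0.00 and 0 were called with or without the block. Under an unadjusted p of 0.05 were 0 without the block and 2 with it, against 1.16% and 2.81% of all tested probe sets. Rbpj, the DNA-binding factor of the pathway, gave 0.01, and the proteases that cleave Notch at the cell surface, Adam17 and Adam10, gave 0.10 and -0.03.

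Other co-repressors gave no call either, 0 of 28 measured genes of 31, with 9 positive and a median of -0.03, and 0 under an unadjusted p of 0.05 in both fits. Ctbp1 gave -0.01, Sin3b -0.03 and Nab1 -0.11. Of the NF-kB subunits and their inhibitors 0 of 8 were called for IL-10 at 30 min and 0 were under an unadjusted p of 0.05, with Nfkbia, the inhibitor IkB-alpha, at 0.14 and Rela at -0.05. The change for 30 minus 10 min was positive for all 8 with LPS plus IL-10 (median 0.19) and for all 8 with LPS alone (median 0.20), and Nfkbiz, a nuclear member of the IkB family, was called in both with the block only (1.17 and 1.06).

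Among the osteoclast genes 0 of 8 were called and 0 were under an unadjusted p of 0.05 at 30 min, with Spi1, a transcription factor of the myeloid lineage, at 0.08, Mitf at 0.11 and Tnfrsf11a, the receptor RANK, at -0.01. For 16 helicases that act on chromatin or nucleic acids the count was also 0 on both measures, with Dhx9 at 0.02, Smarca5 at 0.04 and Smarca4 at 0.01. The median difference of these lists was 0.06 and 0.01. All counts in the lists are for limma with and without the block unless one of them is named. At 30 min 0.0111% of all tested probe sets were called and 1.16% were under an unadjusted p of 0.05. With the block these shares were 0.0443% and 2.81%. Counts of 0 in lists this short are close to what such shares give.

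Genes were ranked by how closely their log2 signal followed the brightest Sbno2 probe set, as a description over arrays that share treatments and experiments. Over the 18 arrays the closest after 2 of its own probe sets were Mt1, a metal-binding metallothionein, by 1451612_at (Pearson r = 0.90), the transcriptional repressor Etv3 by 1456358_at (0.88), Socs3 (0.87) and Stat3 by 1459961_a_at (0.84). Ryk (0.75), Gadd45g (0.73), Mt2 (0.70), Irf1 (0.68), Tubb2a (0.67) and E230029C05Rik (0.67) followed. For 5 of these 10 genes (Mt1, Etv3, Stat3, Ryk and E230029C05Rik) the probe set ranked is not the brightest of the gene.

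Etv3 by 1456358_at read 2346, 2597 and 2049 at 30 min with LPS plus IL-10, against 913, 1268 and 577 with LPS alone. All 3 IL-10 arrays were above all 3 LPS arrays, and the log2 difference of 1.39 was called with the block only (limma adjusted p = 0.000283). The brightest Etv3 probe set, 1418637_at, differed by 0.50 (limma adjusted p = 1.00, and 0.393 with the block) and did not pass.

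By the dim probe set 1451612_at, Mt1 read 484, 417 and 402 at 30 min with LPS plus IL-10, against 132, 125 and 74.8 with LPS alone, and its groups were apart as well, with a log2 difference of 1.86 called with the block only (limma adjusted p = 0.0142). The brightest Mt1 probe set, 1422557_s_at, averaged 9297 ± 249.8 with LPS plus IL-10 and 7566 ± 379 with LPS alone (SD, n = 3 each), a log2 difference of 0.30 that did not pass (limma adjusted p = 1.00 with and without the block). The Stat3 probe set 1459961_a_at is dim. It read 483, 518 and 404 with LPS plus IL-10, against 134, 88.0 and 121 with LPS alone at 30 min, a log2 difference of 1.91 that did not pass (adjusted p 0.0984 with the block), where the brightest Stat3 probe set gave 0.07.

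Over the 6 group means, Stat3 by the same probe set (r = 0.99), Txlng, Agpat2, Sirt2, Rad9a, Tbk1, 2310075K07Rik, Gadd45g, Zscan26 and Ccdc186 (0.96 to 0.98 for these 9) were the closest, and 2 genes, Stat3 and Gadd45g, were in both rankings. Some of them hardly moved. The 6 group means of Tbk1 spanned 0.10 log2 units and those of Agpat2 0.14, so a high correlation over 6 points came with a small change. For Stat3, Tbk1 and Ccdc186 the probe set ranked is not the brightest of the gene.

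For Sbno1, by 1426559_at, Srp19, Mef2a, Srrm2, Epm2aip1 and Nr2c2 were the closest over the 18 arrays (0.96 to 0.97), and Klhl28, Rbfox3, Hspa13, F2 and Unc119 over the 6 group means (0.99 to 1.00), with 0 genes in both rankings. For Mef2a, Epm2aip1, Nr2c2, Klhl28 and Hspa13 the probe set ranked is not the brightest of the gene. By the brightest probe sets, Mef2a, Epm2aip1 and Nr2c2 correlated at -0.74, 0.56 and 0.23 over the 18 arrays. On that measure the genes ranked by group means ran from -0.73 (Unc119) to 0.61 (Rbfox3). The other probe sets of Sbno1 correlated with 1426559_at at -0.71 to 0.69 over the arrays.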

How the data were processed

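The authors deposited 1 intensity per probe set and array on a linear scale, made with GCOS 1.4 per the submitters' processing notes. How the signal was computed and how the arrays were scanned is not stated. The trimmed mean is the same on every array, so a change in total RNA per cell would not show, and without detection calls a dim signal cannot be told from background. The platform annotation named the probe sets, and no array was left out.

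Signals were turned into log2(signal + 16). The 27110 probe sets at or above the median signal of 3 or more arrays were fitted with limma 3.58.1 (lmFit, eBayes with trend) in R 4.3.3, with all 18 arrays and 6 group coefficients. Each of 13 comparisons was tested two-sided at 0.05, with Benjamini-Hochberg adjustment over all tested probe sets. The fit was tested on simulated data with independent noise and no differences between experiments. Such data cannot show whether the fit with or without the block suits these arrays. Single differences used exact sign-flip or permutation tests. The number of arrays limits the precision. Without the block, limma p-values measure the spread of arrays within groups, which mixes differences between the 3 experiments with array noise. That fit treats the 18 arrays as independent, although arrays of the same experiment had correlated residuals. With the experiment as a block, the p-values measure the spread left once differences between experiments are taken out. The sign-flip tests treat the pairs of arrays matched by experiment and time as independent, although these pairs come from only 3 experiments.

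The labels make each replicate number an independent experiment. Residuals about the group means had correlations of 0.20 to 0.64 for the 45 array pairs sharing a number and -0.47 to 0.0651 for the 90 that did not, and each of the 18 arrays was closest to one of its own number. The numbers therefore pair the arrays, and the fit with this replicate block is given where it changes a call or a count.

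The genes and the lists were chosen with earlier results of these data known. Named genes are all probe sets of both genes, the closest 10 (Sbno2) and 5 (Sbno1) genes by correlation, the 2 nearest annotated genes on each side, and from each list the called and up to 3 brightest members. Lists were described by counts and medians, and no list was tested. RefSeq tables on GRCm38.p6 gave the start windows and neighbours.

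Alternatives were the replicate block, quantile normalisation, a pseudocount of 1 or 64, other filters (none, or the 75th percentile), no trend, a fit on only the groups compared, each other probe set, and leaving out arrays or experiments. The block with an experiment left out, and leaving out the 2 LPS arrays that stood apart, were added after seeing the data.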

Additional observations from a re-analysis of the deposited data

Results flagged for a closer look

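The IL-10 effect on Sbno2 differed between times. By 1439349_at it was 2.35 log2 units larger at 30 than at 10 min (limma adjusted p = 0.0221), and by 1458308_at 1.55 larger (adjusted p = 1.00, and 0.0458 with the replicate block).

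For 1439349_at the change from 20 to 30 min also went in opposite directions in every experiment. With LPS plus IL-10 it was 0.64 and positive in 3 of 3 experiments, and with LPS alone it was -0.36 and negative in 3 of 3. Of the 3 LPS-alone differences, 2 use the 20 min arrays of experiments 2 and 3 that stood apart, and in experiment 1, which does not, the changes were 0.70 with LPS plus IL-10 and -0.61 with LPS alone. The difference of 1.00 between these changes did not pass (limma adjusted p = 1.00, and 0.898 with the block). The fall with LPS alone was not shared by 1458308_at (-0.03, 0.02 and 0.07 in experiments 1, 2 and 3). Nor was it shared by 1443721_x_at (1.00, -0.30 and 0.01), whereas 1441840_x_at fell in 3 of 3.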

How the results depend on the processing

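Values are log2 differences by the brightest probe set unless another is named, and adjusted p are from limma. The Sbno2 IL-10 effect at 20 min lost its call with quantile normalisation (1.48, adjusted p = 0.0797), without the trend (1.51, 0.0908), with only the groups compared (1.51, 1.00), by 1441840_x_at (0.060), 1443721_x_at (1.19) and 1458308_at (0.74), and without the 2 LPS arrays that stood apart (1.47, or 1.31 with the replicate block). At 30 min it lost its call by 1441840_x_at (0.50) and 1443721_x_at (1.67), and the difference for 10 min was -0.098 by 1443721_x_at. With IL-10, 20 minus 10 min lost its call with only the groups compared (1.54, adjusted p = 0.932) and by 1441840_x_at (0.055), 1443721_x_at (1.03) and 1458308_at (0.81), and 1441840_x_at went the other way for 30 minus 10 min (-0.16) and 30 minus 20 min (-0.22). With LPS alone, 1458308_at gave 0.11 for 30 minus 10 min. The change of the IL-10 effect was -0.10 for 20 minus 10 min by 1441840_x_at, and for 30 minus 10 min it lost its call without the trend (2.35, adjusted p = 0.0566), with only the groups compared (2.35, 0.159) and by 1441840_x_at (0.34), 1443721_x_at (1.77) and 1458308_at (1.55). For Sbno1, which was never called, the IL-10 effect averaged over times was positive by 1434612_s_at (0.0045) and 1451436_at (0.081) and without the 2 LPS arrays (0.042). Its 30 minus 10 min difference with IL-10 was positive by 1451436_at (0.31), 1455026_at (0.16) and 1457509_at (0.71), and with LPS alone negative by 1434612_s_at (-0.073) and 1451436_at (-0.034). The cause of these changes was not tested.

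Leaving out 1 experiment or 1 array gave, for Sbno2, IL-10 effects of -0.016 to 0.38 at 10 min, 1.28 to 1.63 at 20 min and 2.40 to 2.64 at 30 min. With IL-10 it gave 1.37 to 1.71 for 20 minus 10 min and 2.08 to 2.26 for 30 minus 10 min, and with LPS alone -0.32 to 0.055 for 30 minus 10 min. The change of the IL-10 effect, 30 minus 10 min, was 2.13 to 2.55. For Sbno1 the IL-10 effect was -0.13 to 0.17 at 30 min and -0.16 to 0.067 averaged over times, and 30 minus 10 min was -0.21 to 0.099 with IL-10 and -0.11 to 0.18 with LPS alone. The excess of Sbno2 over Sbno1 was 1.35 to 1.47 over 6 pairs.

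With the replicate block the estimates were the same and no Sbno2 call by the brightest probe set was lost (adjusted p = 4.94e-07 at 30 min and 0.000489 at 20 min). Block fits without experiment 1 lost the calls for IL-10 at 20 min (1.6), 20 minus 10 min with IL-10 (1.52) and the change of the effect, 30 minus 10 min (2.27). In other block fits with 1 experiment left out the sign turned for Sbno2 at 10 min (-0.016) and for Sbno1 at 30 min (-0.086), averaged (0.029), for 30 minus 10 min with IL-10 (0.016) and with LPS alone (-0.11), none of which was called. A permutation test within times, without pairing, gave p = 0.00225 for the excess of 1.43 of Sbno2 over Sbno1. That test ignores the pairing of arrays by experiment and pools times from the same experiments as if independent. Its p is therefore not firmer evidence than the test on matched pairs. Within a single time the exact permutation p was 0.9, 0.1 and 0.1 at 10, 20 and 30 min. Over all probe sets of each gene the mean excess was 0.89 (exact p = 0.0117). No call listed here changed under another filter or pseudocount. The dimmest probe set, 1457509_at, reached the array median on 11 of the 18 arrays, and signal over background was not measured.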
